A study of Homo sapiens with 6 samples.

Results

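The tubulin and cytoplasmic actin genes examined here are 10 genes chosen by name: TUBA1A, TUBA1B, TUBA1C, TUBB, TUBB2A, TUBB2B, TUBB3, TUBB4B, ACTB and ACTG1. They are 10 of the 19970 protein-coding genes on chromosomes 1 to 22 and X in the RefSeq table used for positions. The data are peak lists from chromatin immunoprecipitation and sequencing (ChIP-seq) of HEK293T cells with no treatment named in the labels, an established line of human embryonic kidney cells carrying the SV40 large T antigen. The 5 lists come from antibodies to the histone variant H2A.Z (H2AZ CST and H2AZ Abcam, named for their suppliers), to the variant H3.3, to H4K16ac and to H3K79me2, with 1 library each, and a sixth library, input chromatin, was not analysed here. Transcript levels were not measured, so the cells could not be checked against marker genes. No replicate spread could be measured and no p-value is given, and each difference below is a difference between peaks of single libraries.

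Alpha and beta tubulins pair into the dimers from which microtubules grow, and the cytoplasmic actins form the filaments of the cell cortex. Nearly all cells make TUBA1B, TUBA1C, TUBB and TUBB4B, called the general tubulins here, whereas TUBA1A, TUBB2A, TUBB2B and TUBB3 are best known as tubulins of neurons, and TUBB3 is a common neuronal marker. H2A.Z is a variant of H2A that usually flanks the starts of genes. H3.3 is the H3 variant laid down outside replication at active genes, DOT1L places H3K79me2 in the first part of transcribed genes, and KAT8 is the main enzyme for H4K16ac. The grouping follows this textbook usage, although the members, gene lists and rules were chosen with earlier results of these data known.

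In these libraries the general tubulins and the actins had H3K79me2 peaks far above the median of genes with a peak and H2A.Z below it or absent. The neuronal tubulins had H3K79me2 below that median and H2A.Z around or above it. Against the medians of all genes, with or without a peak, the neuronal tubulins were above in H3K79me2. TUBA1C and ACTG1 were above in H2AZ Abcam. H3.3 was above its median at all 10 genes. The ranges of the general and neuronal tubulins did not overlap for H3K79me2 or for either H2A.Z antibody, and they did overlap for H3.3 and H4K16ac. TUBA1B was the only one of the 10 genes with H3.3 and no H2AZ CST peak in the gene or 5 kb around it, and it had a weak H2AZ Abcam peak.

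The promoter sequences of 5 members are shown because each overlaps at least 1 of the peaks described below and the genes carry contrasting peaks. They come from RefSeq (GRCh38.p14, the assembly of the files' build hg38), each running from 250 bases before an annotated start to 50 bases after it, 5′ to 3′ on the gene's strand. Capitals mark matches on either strand to the CCAAT box, to TATAAA (the TATA box), to GGGCGG (the GC box) or to the CArG box, and overlapping matches run together. The first shown is TUBA1B (chr12:49131346-49131645, minus strand), next the second start of TUBB (chr6:30721388-30721687, plus strand), TUBA1A (chr12:49189031-49189330, minus strand), the second start of TUBB3 (chr16:89923092-89923391, plus strand) and ACTG1 (chr17:81512750-81513049, minus strand).
TUBA1B: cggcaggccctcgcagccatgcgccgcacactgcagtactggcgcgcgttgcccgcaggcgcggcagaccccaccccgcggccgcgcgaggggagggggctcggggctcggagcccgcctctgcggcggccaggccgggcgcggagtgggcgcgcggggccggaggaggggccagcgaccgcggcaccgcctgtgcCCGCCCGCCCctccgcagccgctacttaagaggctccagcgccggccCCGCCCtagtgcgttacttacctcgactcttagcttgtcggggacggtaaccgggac
TUBB, second start: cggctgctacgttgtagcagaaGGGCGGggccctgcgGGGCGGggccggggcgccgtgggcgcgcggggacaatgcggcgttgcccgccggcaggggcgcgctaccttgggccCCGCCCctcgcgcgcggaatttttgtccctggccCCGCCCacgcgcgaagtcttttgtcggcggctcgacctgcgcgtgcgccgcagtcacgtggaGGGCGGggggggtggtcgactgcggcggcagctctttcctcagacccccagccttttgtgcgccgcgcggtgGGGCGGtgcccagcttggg
TUBA1A: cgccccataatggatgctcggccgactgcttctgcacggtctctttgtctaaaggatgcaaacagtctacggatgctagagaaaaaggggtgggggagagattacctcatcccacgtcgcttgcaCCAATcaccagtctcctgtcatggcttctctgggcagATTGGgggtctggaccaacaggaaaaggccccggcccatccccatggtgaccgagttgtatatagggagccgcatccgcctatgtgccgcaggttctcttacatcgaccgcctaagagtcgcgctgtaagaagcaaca
TUBB3, second start: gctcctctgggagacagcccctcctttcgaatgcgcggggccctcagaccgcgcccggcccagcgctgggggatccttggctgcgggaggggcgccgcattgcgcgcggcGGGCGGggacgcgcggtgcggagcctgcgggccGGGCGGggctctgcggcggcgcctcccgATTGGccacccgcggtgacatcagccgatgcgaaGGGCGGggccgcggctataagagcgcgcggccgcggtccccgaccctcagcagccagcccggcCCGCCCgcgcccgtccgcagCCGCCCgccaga
ACTG1: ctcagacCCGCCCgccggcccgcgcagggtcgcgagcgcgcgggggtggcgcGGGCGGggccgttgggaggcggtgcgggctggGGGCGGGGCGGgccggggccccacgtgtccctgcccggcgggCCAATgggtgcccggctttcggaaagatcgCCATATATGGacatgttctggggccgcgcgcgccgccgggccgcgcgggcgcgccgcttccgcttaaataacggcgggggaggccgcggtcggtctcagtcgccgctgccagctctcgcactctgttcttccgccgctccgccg

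The promoters matched these letters in different ways. TUBA1B held 3 GGGCGG matches and no CCAAT, and the second start of TUBB held 6 and none. TUBA1A held 2 CCAAT matches and no GGGCGG. The second start of TUBB3 held 1 CCAAT and 5 GGGCGG matches. ACTG1 held 1 CCAAT, 4 GGGCGG and 1 CArG box match, the last beginning 94 bases before the start. CArG boxes are the sites of serum response factor, a regulator of actin genes. Not shown are TUBB4B, which held 3 CCAAT matches, and TUBB2A, which held the only TATAAA match of the member promoters, 30 bases before its start. Of 22155 promoters of protein-coding genes in the table, 34.6% held CCAAT, 56.3% GGGCGG, 9.47% TATAAA and 1.25% a CArG box. CpG counts did not separate the groups. TUBB3 had 47 CpG at its second start, TUBB2A 41 and TUBB2B 34, against 43 at TUBA1B and a median of 21 over all promoters, while TUBA1A had 16 and TUBB4B 18. Within a gene they did differ between starts: TUBA1C had 2 at its first start and 25 at the third, and TUBB3 had 9 at its first.

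Peak strength is given as −log10 q, the authors' adjusted p-value of a peak over the caller's background, on a scale where higher is stronger. It is compared within a list only, with read depth not given in the sources used here. A gene's strength is that of its strongest peak within 1 kb of any annotated start, and 0 means that no peak was in the list. The RefSeq start table used here matched 9 of the 10 genes; for ACTB both gene ends were used. Percentiles are ranks among the 19970 genes within a list. The lists held between 44634 peaks (H2AZ Abcam) and 76748 peaks (H4K16ac). Reads from tubulin and actin genes can also match their close copies, and the sources used here do not say how such reads were treated. Their part in any gap or peak below was not tested.

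Nearly every member had every signal nearby, so presence alone said little. In the gene and 5 kb around it, all 10 members had H2AZ Abcam, H3.3, H4K16ac and H3K79me2, and 9 had H2AZ CST. Over all protein-coding genes the same windows held H2AZ CST in 79.6%, H2AZ Abcam in 79.7%, H3.3 in 72.4%, H4K16ac in 66.9% and H3K79me2 in 61.2%. Within 1 kb of a start, 8 of 10 members had H2AZ CST, against 70.2% of all genes, and all 10 had the other lists, against 55.6% in H3K79me2, 63.7% in H3.3, 53.0% in H4K16ac and 70.7% in H2AZ Abcam. Of the 181 peaks counted in the member windows, 22 had a summit closer to the start of another protein-coding gene: MDC1 beside TUBB, SLC34A3 and CIMIP2A beside TUBB4B, and MC1R beside TUBB3. The maps of the peaks show these positions.

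**Figure D1:**
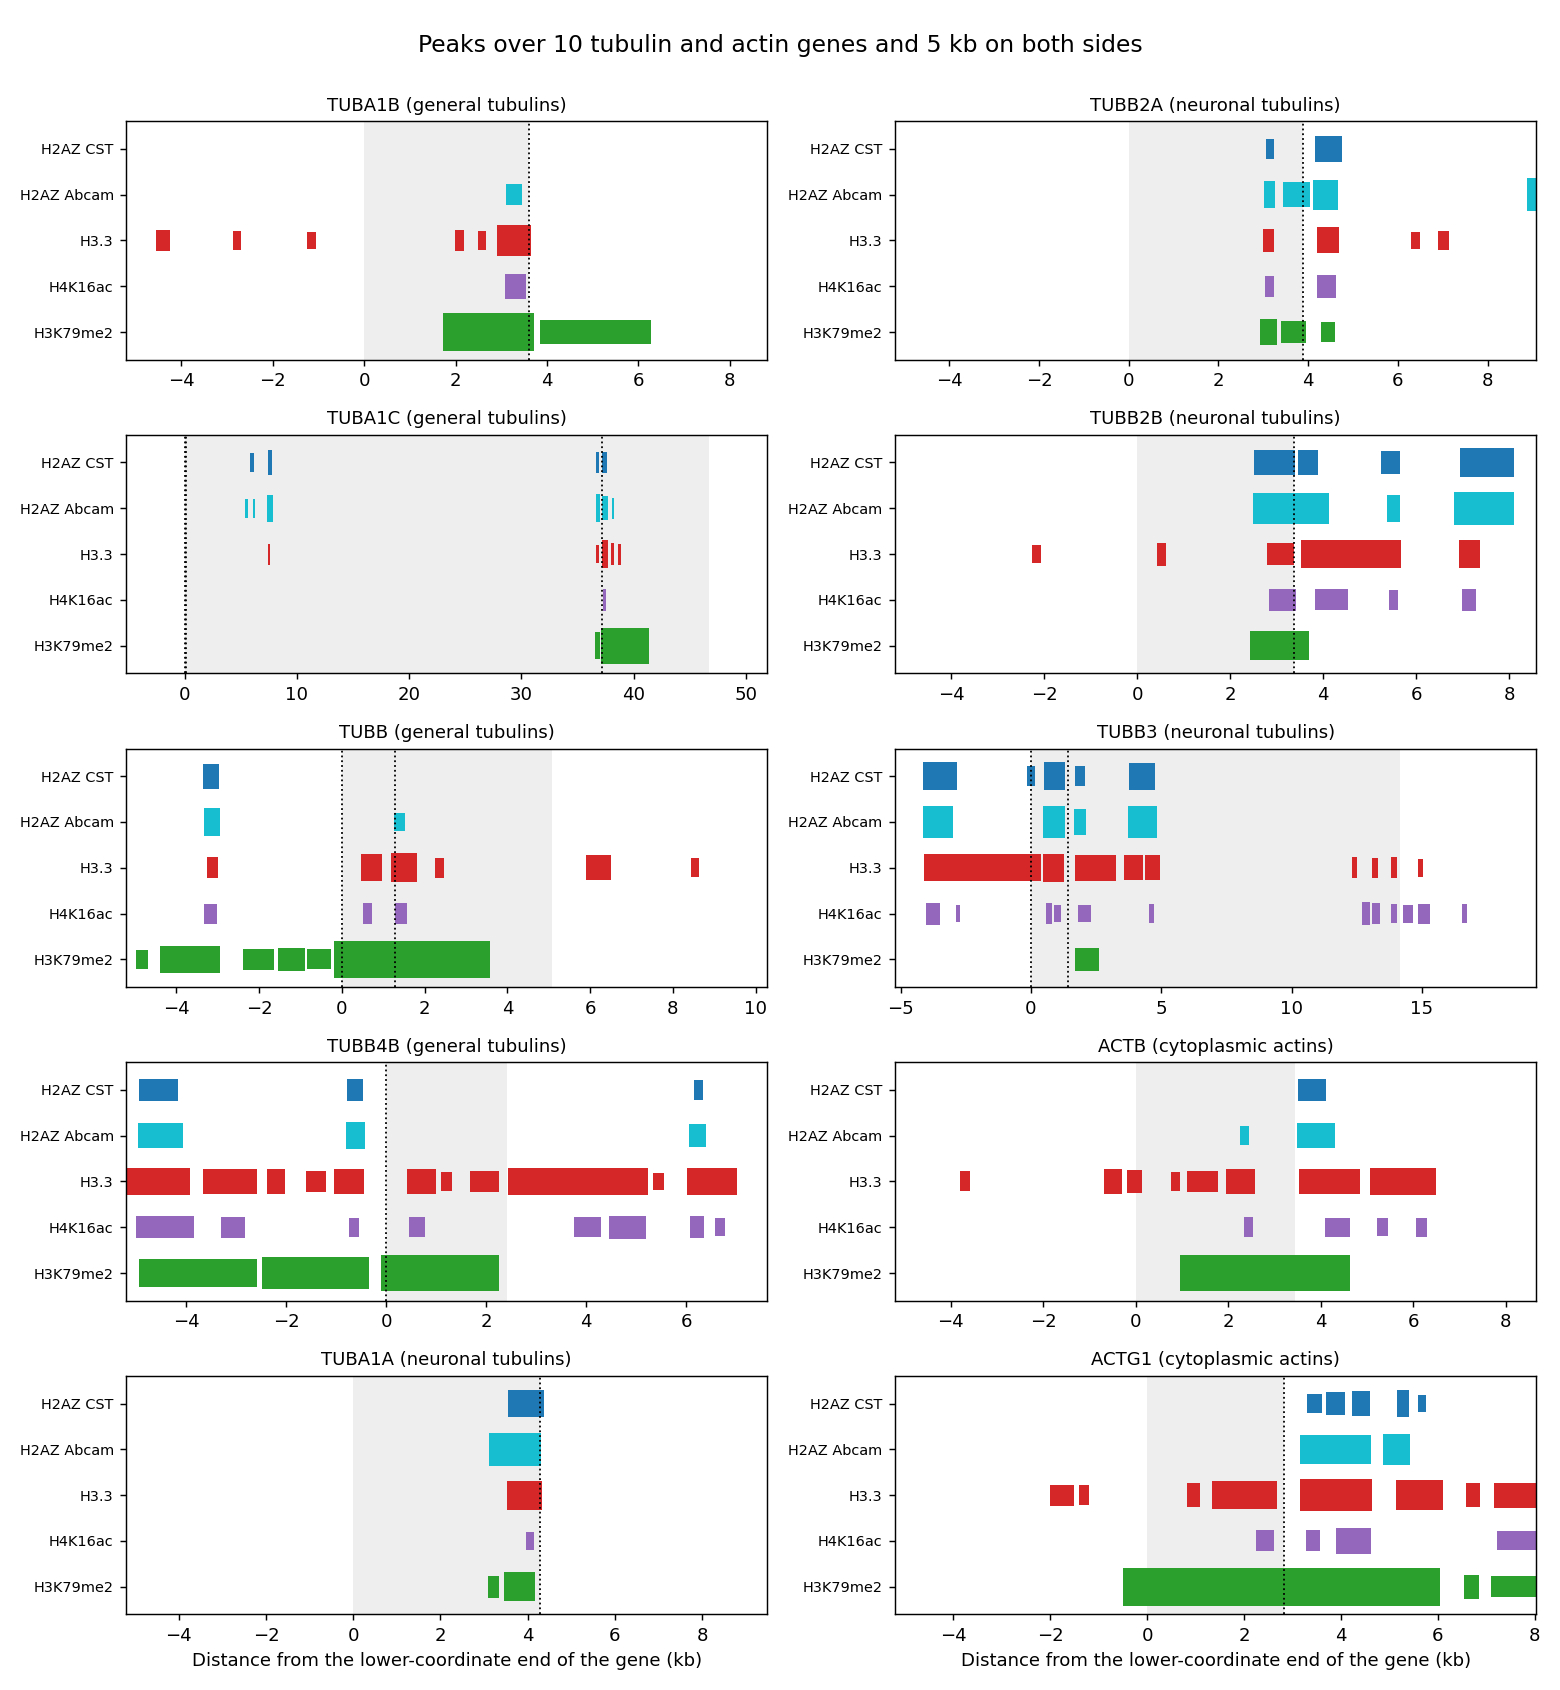
Peaks of the 5 lists over each gene (grey) and 5 kb on both sides, drawn by distance in kb from the gene's lower-coordinate end, with dotted lines at annotated starts (none for ACTB) and bar height growing with −log10 q. Tall H3K79me2 bars lie over the general tubulins and the actins, TUBA1B has no H2AZ CST bar, and TUBB3 has H2AZ bars on both sides of its second start.

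TUBA1B encodes a widely expressed alpha tubulin (chromosome 12, 49127782 to 49131395, minus strand). Its strengths at the start were 653 in the H3K79me2 list, 109 in H3.3, 27.7 in H4K16ac, 8.47 in H2AZ Abcam and 0 in H2AZ CST. The first 3 stood at percentiles 97.2, 98.7 and 97.7 of their lists, and H2AZ Abcam at 32.3. The gene was thus high in every list other than those of H2A.Z. The main H3.3 peak ran from 30 bases before the start to 698 after it, the H4K16ac peak from 79 to 533 after it, and the strongest H3K79me2 peak from 108 before to 1879 after. The H2AZ Abcam peak lay inside this stretch, from 165 to 518 bases after the start, with a fold enrichment of 5.78. A weaker H3K79me2 peak of 18.6 lay upstream, from 231 to 2671 bases before the start. A further 5 H3.3 peaks, of 3.86 to 11.1, followed downstream, and 3 of them lay past the end of the gene.

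TUBB encodes a widely expressed beta tubulin (chromosome 6, 30720352 to 30725422, plus strand) and has 2 annotated starts 1.29 kb apart. Its strengths were 670 in H3K79me2, 84.6 in H3.3, 9.0 in H4K16ac, 4.97 in H2AZ Abcam and 0 in H2AZ CST. H3K79me2 and H3.3 were high, at percentiles 97.5 and 96.6, and H2A.Z was absent or weak. H3.3 had a peak of 51.2 between the starts and its strongest over the second, where H4K16ac had 8.39 after 9.0 between the starts. The H3K79me2 peak was 3771 bp wide and spanned both starts. The only H2AZ CST peak in the window, of 27.4, lay 2962 to 3340 bases upstream of the first start with its summit closer to the start of MDC1, a mediator of the DNA damage response. H2AZ Abcam had 51.2 at the same place. An H3.3 peak of 28.9 lay past the end of the gene, before FLOT1.

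TUBB4B encodes another widely expressed beta tubulin (chromosome 9, 137241287 to 137243707, plus strand). Its strengths were 572 in H3K79me2, 36.0 in H3.3, 8.16 in H4K16ac, 54.9 in H2AZ Abcam and 13.5 in H2AZ CST. The H2AZ peaks at the start lay upstream, at 470 to 783 bases in the CST list and 426 to 808 in the Abcam list, and neither list had a peak inside the gene. H3.3 formed 11 peaks, more than at any other of the 10 genes, which covered 8.95 kb of the 12.42 kb window and left the start itself uncovered. H3K79me2 covered the start and 92.9% of the gene. The strongest H3.3 peaks on either side, of 50.9 upstream and 50.8 downstream, had summits closer to the starts of SLC34A3, a phosphate transporter of the kidney tubule, and of CIMIP2A.

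TUBA1C encodes another widely expressed alpha tubulin (chromosome 12, 49227926 to 49274600, plus strand) and has 3 annotated starts, of which the last lies 37.16 kb after the first. No list had a peak within 1 kb of the first or second start. At the third start the strengths were 434 in H3K79me2, 54.6 in H3.3, 15.9 in H4K16ac, 68.4 in H2AZ Abcam and 12.1 in H2AZ CST. The strongest H2AZ Abcam peak lay 139 to 542 bases upstream. H3.3, H4K16ac and the 4316 bp wide H3K79me2 peak had their summits 201 to 216 bases downstream. A separate site held H2AZ Abcam of 47.7 from 7241 to 7738 bases after the second start, with H2AZ CST of 28.9 and H3.3 of 9.46 on it and with neither H4K16ac nor H3K79me2.

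ACTG1 encodes gamma actin (chromosome 17, 81509971 to 81512799, minus strand) and had the strongest H3.3 and H3K79me2 of the 10 genes. Its strengths were 821 in H3K79me2, 175 in H3.3, 10.2 in H4K16ac, 87.6 in H2AZ Abcam and 16.3 in H2AZ CST. Of all genes, 27 had stronger H3.3 at a start and 56 stronger H3K79me2. A single H3K79me2 peak of 6541 bp covered 100% of the gene and reached 3209 bases upstream of the start. The start lay in a gap of the other 4 lists: H3.3 had a peak of 60.4 from 143 to 1480 bases downstream and the peak of 175 from 319 to 1811 bases upstream. H2A.Z lay on the upstream side alone, towards FSCN2, a fascin of photoreceptors. Stronger peaks lay there beyond 1 kb from the start, with 117 in H2AZ Abcam, 41.3 in H2AZ CST and 37.2 in H4K16ac. Of these, the H2AZ CST peak lay inside the annotated FSCN2 gene and the H2AZ Abcam peak crossed its lower-coordinate end. Both summits were closer to the start of ACTG1 than to a listed start of FSCN2.

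ACTB encodes beta actin (chromosome 7, 5527148 to 5530601). Its strengths over both ends were 560 in H3K79me2, 36.8 in H3.3, 7.27 in H4K16ac, 28.4 in H2AZ Abcam and 15.7 in H2AZ CST. The signals were uneven along it. The H2AZ CST peak lay outside the higher-coordinate end, from 51 to 665 bases beyond it, and the H3K79me2 peak of 3695 bp ran from 2507 bases inside that end to 1187 beyond it. H3.3 formed 8 peaks, the strongest of 47.5 from 1613 to 3034 bases beyond the same end. Around the lower-coordinate end H3.3 had peaks of 26.4 and 13.5, and no other list had a peak outside the gene there. H3.3 peaks covered 46.9% of ACTB and 56.9% of ACTG1, which with TUBB4B (56.0%) were the most covered of the 10 genes.

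TUBA1A is an alpha tubulin of developing neurons (chromosome 12, 49184795 to 49189080, minus strand). Its strengths were 86.2 in H3K79me2, 81.7 in H3.3, 5.16 in H4K16ac, 210 in H2AZ Abcam and 44.0 in H2AZ CST. H2AZ Abcam stood at percentile 89.8 of its list, H3.3 at 96.2 and H3K79me2 at 62.9. It had the fewest peaks of the 10 genes, 6 in all, and these lay between 82 bases before the start and 1198 after it. H2A.Z, H3.3 and H3K79me2 shared this stretch: H2AZ CST from 82 bases before to 748 after the start, H3.3 from 35 before to 754 after, and the main H3K79me2 peak from 116 to 827 after.

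TUBB2B and TUBB2A are close copies on chromosome 6 that are abundant in brain. TUBB2B (3224277 to 3227653, minus strand) had 72.3 in H3K79me2, 75.2 in H3.3, 11.5 in H4K16ac, 155 in H2AZ Abcam and 35.7 in H2AZ CST. TUBB2A (3153666 to 3157544, minus strand) had 34.1, 38.5, 17.1, 106 and 33.8 in the same order, so TUBB2B was the higher in every list other than H4K16ac. At TUBB2B every list had a peak over the start, although the strongest H3.3 peak lay 147 to 2299 bases upstream. Farther upstream lay stronger H2AZ, with 193 in Abcam from 3446 to 4718 bases before the start and 65.9 in CST, and H3.3 of 53.7. At TUBB2A H2AZ Abcam and H3K79me2 had weaker peaks over the start, and H3.3, H4K16ac and H2AZ CST lay on both sides of it, H3.3 from 327 to 816 bases upstream and from 648 to 876 downstream. An H2AZ Abcam peak of 227 lay at the far edge of the TUBB2A window, and an H2AZ CST peak of 70.7 began 36 bases outside it. H3K79me2 formed 3 peaks of at most 548 bp at TUBB2A and 1 of 1266 bp at TUBB2B.

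TUBB3 (chromosome 16, 89921925 to 89936097, plus strand) has 2 annotated starts 1.42 kb apart. Its strengths were 20.7 in H3K79me2, 61.8 in H3.3, 8.5 in H4K16ac, 167 in H2AZ Abcam and 57.1 in H2AZ CST. Its H3K79me2 was the lowest of the 10 genes and its H2AZ CST the highest. No peak of any list covered the second start. H2AZ CST lay 127 to 908 bases before it and 289 to 653 after it, H2AZ Abcam 102 to 939 before and 247 to 714 after, and H3.3 153 to 959 before and 262 to 1865 after. The only H3K79me2 peak, of 925 bp, began 284 bases after this start and covered 6.53% of the gene. Deeper in the gene, 2314 to 3407 bases after the second start, H2AZ Abcam had 173, with H2AZ CST of 50.2 and 2 H3.3 peaks there. Towards the other end of the gene, H3.3 and H4K16ac formed a series of peaks with neither H2A.Z nor H3K79me2. Those of H3.3 had 4.43 to 10.3 and those of H4K16ac 4.15 to 14.5, the last being the strongest H4K16ac peak of the window. Upstream, a 4521 bp H3.3 peak ran from the end of LOC124903759, over the whole of the melanocortin receptor gene MC1R and across the first start. H2AZ Abcam of 175 and H2AZ CST of 55.7 lay at its far end, mostly within LOC124903759.

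Side by side, the groups differed in opposite directions in H3K79me2 and H2A.Z. The general tubulins had H3K79me2 of 434 to 670 (median 613), the actins 560 and 821, and the neuronal tubulins 20.7 to 86.2 (median 53.2), so every general tubulin lay above every neuronal tubulin. Over all protein-coding genes the median was 18.1, and 168 among those with a peak. H2AZ CST was 0 to 13.5 in the general tubulins, 15.7 and 16.3 in the actins and 33.8 to 57.1 in the neuronal tubulins, and H2AZ Abcam 4.97 to 68.4, 28.4 and 87.6, and 106 to 210. The medians over all genes with a peak were 35.2 and 105, so the general tubulins and actins lay below both, and the neuronal tubulins above the second and around the first. Over all genes, with or without a peak, the medians were 21.9 in H2AZ CST and 59.9 in H2AZ Abcam. TUBA1C (68.4) and ACTG1 (87.6) lay above the latter. The ranges overlapped in H3.3, with 36.0 to 109 (median 69.6) and 38.5 to 81.7 (median 68.5), and in H4K16ac, with 8.16 to 27.7 and 5.16 to 17.1. All 10 members exceeded the median H3.3 of 23.1 over genes with a peak. With 4 genes a group and 1 library a list, the order within a group has no error to set it against.

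**Figure D2:**
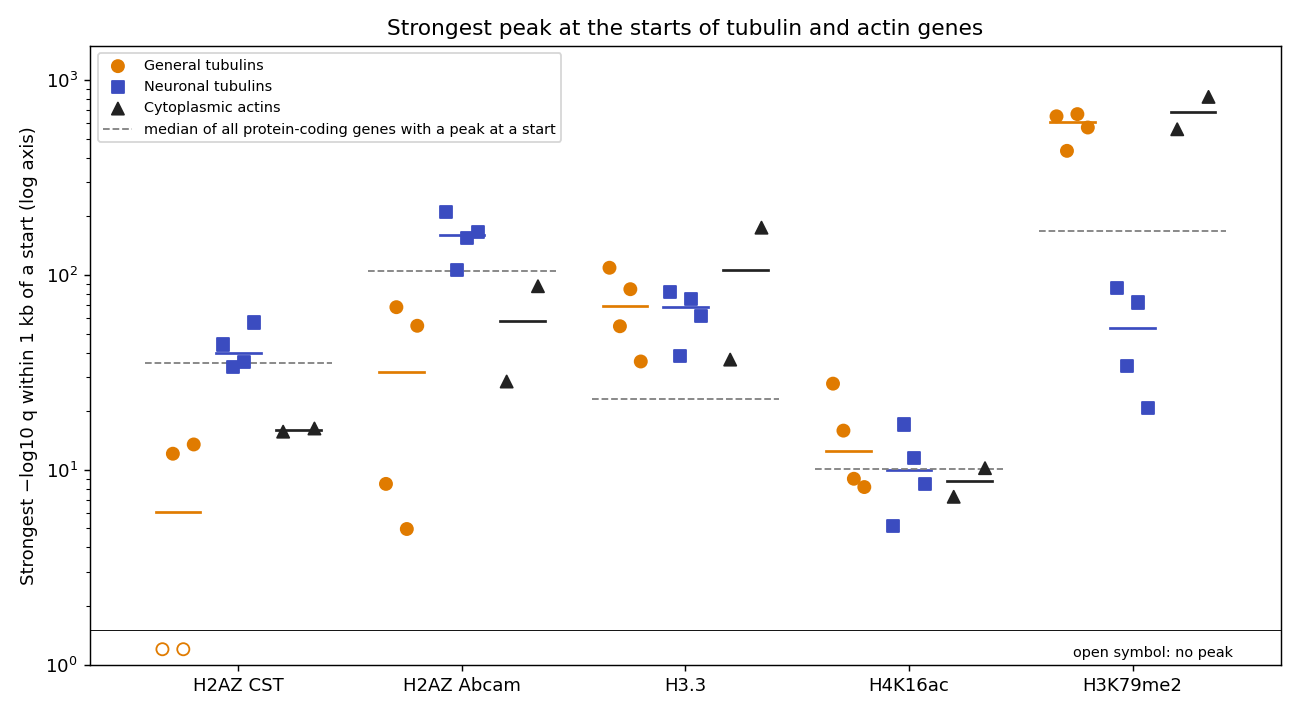
Strongest −log10 q within 1 kb of a start (log axis) for each gene, by list and group, with short bars at group medians and dashed lines at the median of all protein-coding genes with a peak. In H3K79me2 the general tubulins (434 to 670) lie above the neuronal tubulins (20.7 to 86.2), in both H2AZ lists they lie below them, and 2 general tubulins have no H2AZ CST peak.

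The general tubulins and actins had wider H3K79me2 peaks than the neuronal tubulins. Over all peaks of the list the median width was 496 bp, and the widest peak per gene was not taken over all genes. The widest H3K79me2 peak measured 2355 to 4316 bp in the windows of the general tubulins, 3695 and 6541 bp at the actins and 548 to 1266 bp at the neuronal tubulins. At TUBA1B and TUBB4B the widest peak lay upstream, outside the gene, with strengths of 18.6 and 57.8. The strongest peaks of these genes were 1988 and 2345 bp wide. H3K79me2 peaks covered a median of 61.4% of the general tubulin genes, with 10.3% of the long TUBA1C at the low end, and 22.5% of the neuronal ones, against a median of 1.19% over all protein-coding genes. H2AZ Abcam went the other way, with a median coverage of 4.84% and 22.2%, both above the median of 1.15% over all protein-coding genes. H2AZ CST covered 0% of TUBA1B, TUBB, TUBB4B, ACTB and ACTG1, against a median of 0.993% over all protein-coding genes. These genes are short, and a peak of a given width covers more of a short gene.

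Genes with as strong H3K79me2 had, at the median, stronger H2A.Z peaks than these. The 2115 protein-coding genes with H3K79me2 at least that of TUBA1C had median strengths of 35.5 in H2AZ CST and 108 in H2AZ Abcam, and 3.07% of them had no H2AZ CST at a start. All 6 general tubulins and actins lay below both medians. Among these 2115 genes, 2.7% had no H2AZ Abcam peak stronger than that of TUBA1B. The 2431 genes within the H3K79me2 range of the neuronal tubulins had medians of 37.7 and 109 in the same lists. TUBA1A and TUBB3 lay above both medians, TUBB2A (33.8 and 106) below both, and TUBB2B (35.7 and 155) below the first only. The median H3.3 of the 2431 genes was 18.1, below all 4 neuronal tubulins.

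**Figure D3:**
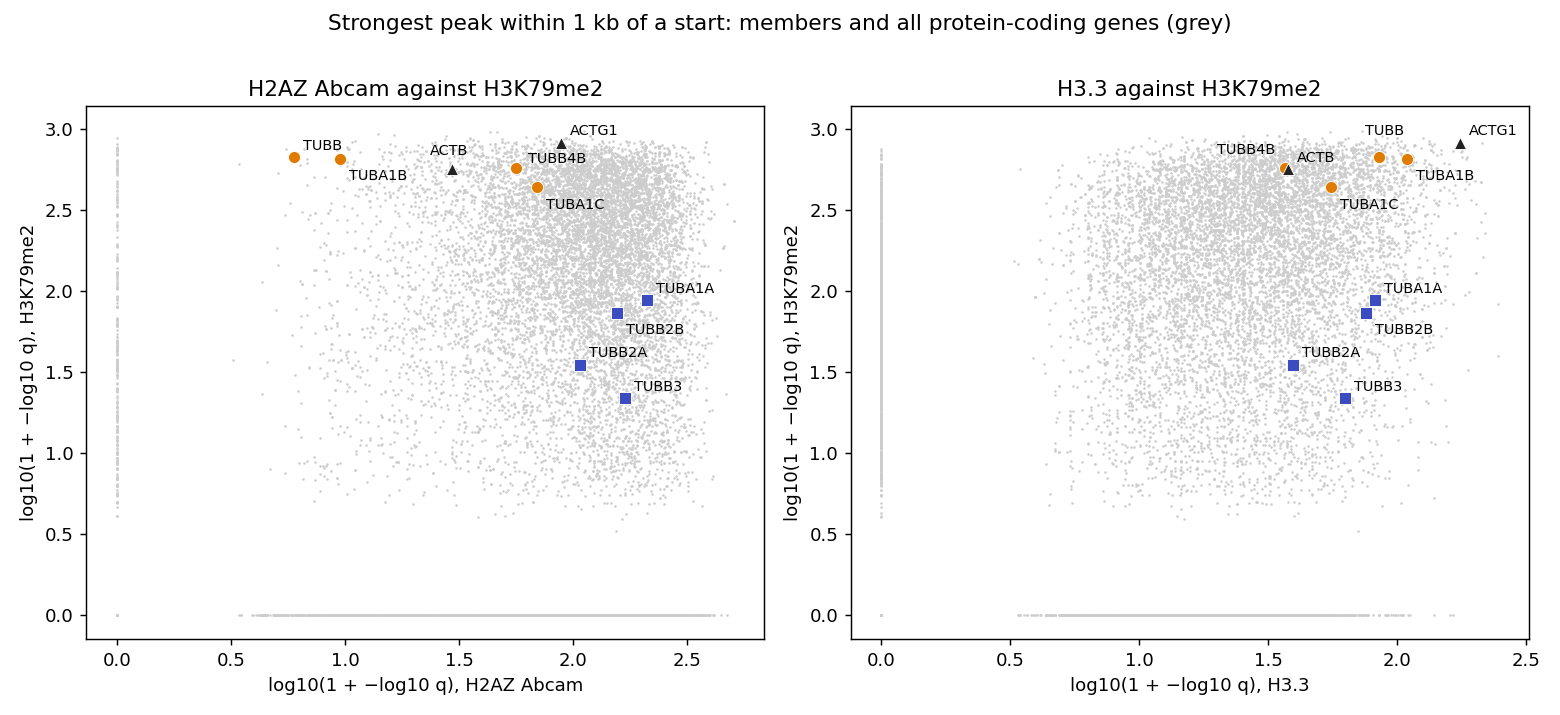
Strongest peak within 1 kb of a start as log10(1 + −log10 q), H3K79me2 against H2AZ Abcam (left) and against H3.3 (right), for the 10 members in colour and all protein-coding genes in grey. The general tubulins and actins sit at the top of both panels, and TUBB (4.97) and TUBA1B (8.47) sit far to the left in H2AZ Abcam, while the neuronal tubulins sit lower in both panels.

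H3.3 without H2A.Z was asked of whole windows, of starts and of single peaks. In the gene and 5 kb around it, only TUBA1B had H3.3 and no H2AZ CST, 1 of 10 against 2.43% of all genes. TUBA1B was known for this from earlier results of the same data, so the count is a description. None of the members lacked H2AZ Abcam (2.43% of all genes had H3.3 without it) or both antibodies (1.65%). Within 1 kb of a start, TUBA1B and TUBB had H3.3 and no H2AZ CST, against 4.3% of all genes, and no member lacked H2AZ Abcam (3.97%) or both (3.11%). The Abcam peak of TUBB, of 4.97, was close to the limit: among peaks with −log10 q of at least 5, TUBB had H3.3 and neither H2AZ list at its starts, as did 3.16% of all genes. In the gene body alone, TUBA1B, TUBB, TUBB4B, ACTB and ACTG1 had H3.3 and no H2AZ CST, 5 of 10 against 4.95% of all genes. These 5 genes are 2.42 to 5.07 kb long, whereas that share is over genes of every length. No share over short genes alone is given for this rule, so the comparison is not like for like. At TUBB4B and the actins the CST peaks lay outside the annotated gene.

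The overlap of single H3.3 peaks with the other lists was counted by group. Of 28 H3.3 peaks in the general tubulin windows, 7 (25.0%) overlapped H2AZ CST, 10 (35.7%) H2AZ Abcam, 11 (39.3%) H4K16ac and 19 (67.9%) H3K79me2. Of 16 at the actins, 4, 4, 6 and 10 did. Of 19 in the neuronal tubulin windows, 11 (57.9%) overlapped each H2AZ list, 13 (68.4%) H4K16ac and 6 (31.6%) H3K79me2. Over all 72287 H3.3 peaks the shares were 38.6%, 40.0%, 60.6% and 34.8%. With this overlap of at least 1 bp, the general tubulins were near the background in H2AZ Abcam and the neuronal tubulins in H3K79me2. With 50% of the H3.3 peak covered, the general tubulins had 21.4% in H2AZ Abcam, against 36.2% of all H3.3 peaks. By that rule the neuronal tubulins had 26.3% in H3K79me2, against 32.4%. Their share fell to 42.1% in each H2AZ list, against 32.9% in H2AZ CST and 36.2% in H2AZ Abcam. In H4K16ac it was also 42.1%, now below the 51.2% of all H3.3 peaks. By at least 1 bp, none of 6 H3.3 peaks at TUBA1B overlapped H2AZ CST and 1 overlapped H2AZ Abcam. At TUBB3 5 of 9 overlapped both lists. Peaks of 1 gene are not independent, and these shares carry no test. When only peaks closer to the member's own start were kept, 4 of 23 general and 10 of 18 neuronal H3.3 peaks overlapped H2AZ CST.

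**Figure D4:**
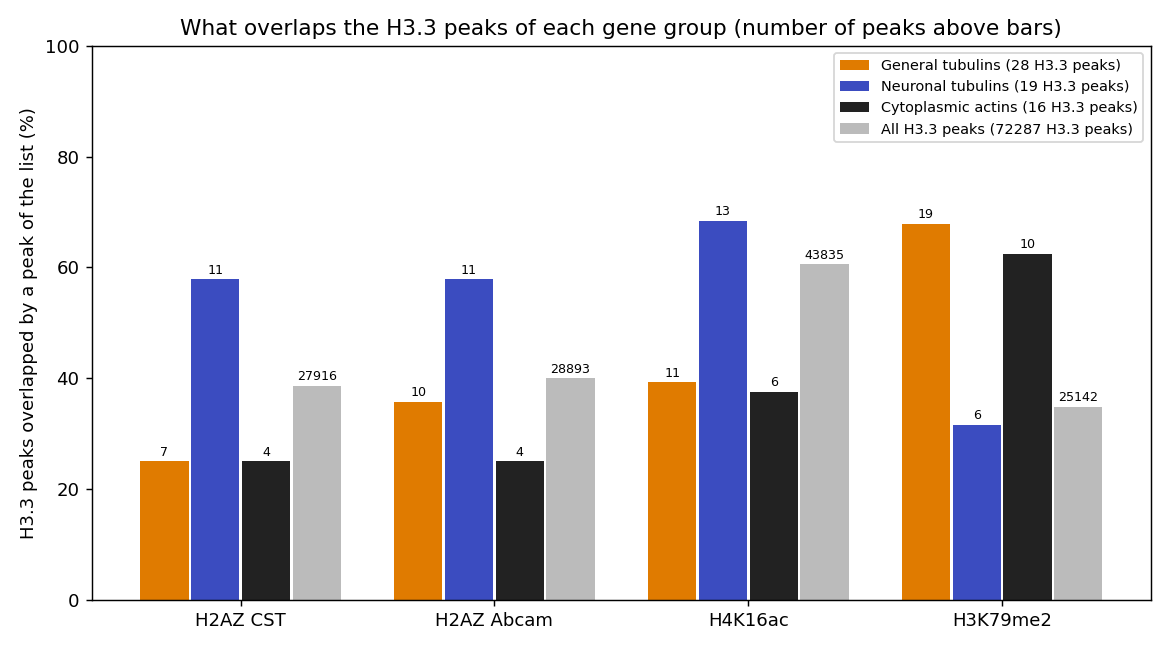
Share of the H3.3 peaks in the windows of each gene group, and of all H3.3 peaks, that overlapped a peak of each other list by at least 1 bp, with the number of overlapped peaks above each bar. For H2AZ CST and H2AZ Abcam the neuronal tubulins (57.9%) stand above all H3.3 peaks, and for H3K79me2 the general tubulins (67.9%) and actins (62.5%) do, with the neuronal tubulins (31.6%) near all H3.3 peaks (34.8%).

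The genes most like TUBA1B, by Euclidean distance between percentile ranks of strength at the start over the 5 lists, were RPS15, a ribosomal protein gene (distance 3.85), HES4, a helix-loop-helix repressor (5.87), NME3, a nucleoside diphosphate kinase (14.1), EIF1, a translation initiation factor (16.5), and PTGES3, a co-chaperone of HSP90 (18.0). RPS15 had 775 in H3K79me2, 102 in H3.3, 21.4 in H4K16ac, 9.21 in H2AZ Abcam and 0 in H2AZ CST. Those most like TUBB3 were ICAM5, an adhesion molecule of neurons (6.37), the mitochondrial ribosomal gene MRPL48 (6.85), the kinase gene MAP3K6 (7.02), GMPPA (7.71) and C1GALT1C1, a chaperone of O-glycan synthesis (7.91). Each gene is a point of 5 values from shared libraries, described with no test.

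Related genes were taken from lists set by function. Over all protein-coding genes, the shares with a peak at a start were 70.2% in H2AZ CST, 70.7% in H2AZ Abcam and 63.7% in H3.3. They were 53.0% in H4K16ac and 55.6% in H3K79me2. In tubulin and actin folding (the tubulin cofactors, the CCT chaperonin and prefoldin), all 19 genes had H2AZ CST, H2AZ Abcam and H3K79me2 at a start. Of these 19, 15 had H3.3 and 11 H4K16ac, the last near its share over all genes. Their medians were 335 in H3K79me2, 77.9 in H2AZ Abcam and 28.8 in H2AZ CST, and all 4 general tubulins lay above the first and below the other two. From each list the genes with the largest sum of −log10 q over the 5 lists are named, a sum that H3K79me2 dominates by its scale and that ranks nothing else. Here the chaperonin genes TCP1 and CCT7 had 761 and 695 in H3K79me2, 81.4 and 63.7 in H2AZ Abcam and 25.0 and 28.3 in H2AZ CST. In actin nucleation and turnover, all 18 genes had both H2AZ lists, H3.3 and H3K79me2, and 14 had H4K16ac. Named by the same sum were profilin PFN1, with 809 in H3K79me2, 139 in H3.3 and 129 in H2AZ Abcam, and cofilin CFL1, with 780, 32.3 and 108. The microtubule-associated proteins of dividing cells had both H2AZ lists, H3.3 and H3K79me2 at 12 of 12 genes and H4K16ac at 9, and MAP4 and PRC1 had 615 and 745 in H3K79me2.

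Among 12 microtubule-associated proteins of neurons, 8 genes had H2AZ CST at a start, 8 H2AZ Abcam, 8 H3.3, 4 H4K16ac and 3 H3K79me2. The H2AZ and H3.3 counts are near the shares over all genes given above (70.2%, 70.7% and 63.7%). MAPT, which encodes tau, had 34.1 in H3K79me2, 22.9 in H3.3, 14.6 in H4K16ac, 266 in H2AZ Abcam and 57.4 in H2AZ CST. STMN3, a stathmin, had 191 in H3K79me2 and 203 in H2AZ Abcam. DCX and MAP2 were among 4 genes with no peak at a start.

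Of 14 other tubulin genes, 8 had H2AZ CST at a start, 8 H2AZ Abcam, 9 H3.3, 7 H4K16ac and 6 H3K79me2, and 5, TUBA3C and TUBA3E among them, had no peak. Over all genes the shares were 70.2%, 70.7%, 63.7%, 53.0% and 55.6% in the same order. The H3.3 and H4K16ac counts are near those shares. TUBG1, the gamma tubulin of the centrosome, had 587 in H3K79me2, 284 in H2AZ Abcam and 86.0 in H2AZ CST. Delta tubulin TUBD1 had 649, 97.0 and 47.3, so strong H3K79me2 stood beside stronger H2A.Z at these 2 genes than at any general tubulin. Of 5 muscle and other actins, set beside the same shares over all genes, 3 had H2AZ CST, 1 H2AZ Abcam, 2 H3.3, 2 H4K16ac and 1 H3K79me2. Smooth muscle ACTA2 had 41.8 in H3K79me2, 231 in H2AZ Abcam and 76.6 in H2AZ CST. Skeletal ACTA1 had H3.3 of 27.7 and H4K16ac of 8.16 with no H2A.Z, and ACTBL2 had no peak.

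**Figure D5:**
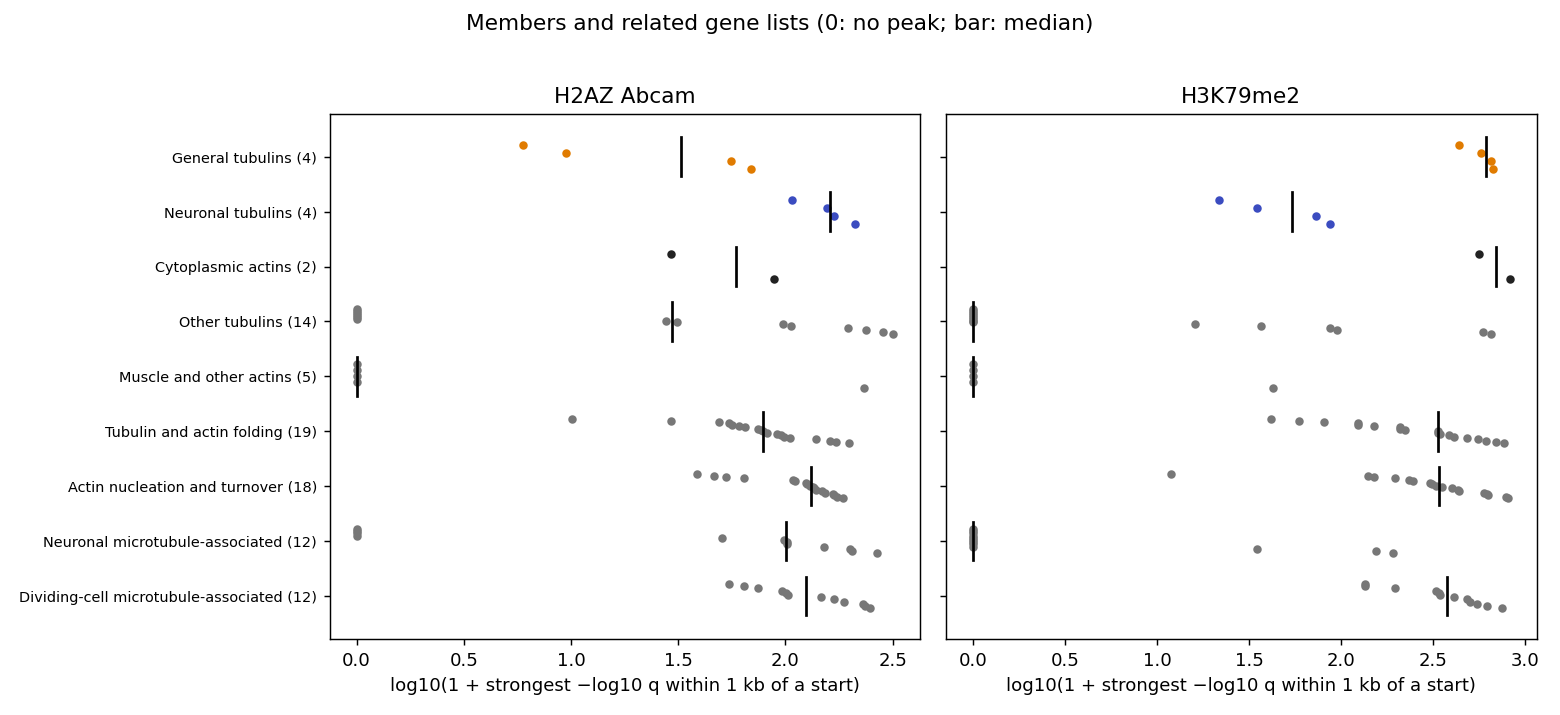
Strongest peak within 1 kb of a start as log10(1 + −log10 q) for every gene of each list, H2AZ Abcam on the left and H3K79me2 on the right, with vertical bars at list medians and the number of genes in brackets. In H3K79me2 the general tubulins and actins lie above, and the neuronal tubulins below, the medians of the folding (335), actin turnover (339) and dividing-cell (377) lists.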

How the data were processed

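Per the submitters' processing notes, the authors used bcl2fastq 2.17, Trimmomatic 0.33, Bowtie 1.1.2 and MACS2 2.1.0 on build hg38. Tool settings, duplicate handling and the role of the input were not stated there. A deposited list came from 1 library, and the authors gave every peak a fold enrichment (a ratio on a linear scale) with its −log10 p and −log10 q. The authors' −log10 q was at least 2.0 in all lists.

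Peaks on chromosomes 1 to 22 and X were intersected with RefSeq genes (GRCh38.p14) in Python 3.11.15 with pandas 2.3.3. The table gives no exons or untranslated regions. A peak counted when it overlapped a window (the gene and 5 kb on both sides, or 1 kb around an annotated start) by at least 1 bp. Genes without a listed start, ACTB among them, used both ends. Starts were listed for 15812 of 19970 genes. The same rules over all protein-coding genes gave the background. The window search was tested on simulated data. All members were named, with neighbouring genes, the 2 genes with the largest summed −log10 q and up to 2 peakless genes of each related list, and the 5 genes nearest to TUBA1B and to TUBB3. Members, gene lists and rules were chosen with earlier results of these data known. Alternatives changed the threshold, the overlap, the window and the H2AZ list. An overlap of 50% of the H3.3 peak and peaks closer to the member's own start were chosen after seeing the data.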

Additional observations from a re-analysis of the deposited data

How the results depend on the processing

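Of 157 values recomputed under another setting, 121 stayed close to the value reported and 36 moved further. Small changes were taken as close, such as 10 to 8 members with H3K79me2 in the window with the 10000 strongest peaks. General tubulins with H2AZ CST going from 3 to 2 with 1 kb around the gene were another. Many of the counts stood at all members or all genes of a group, so the tally is no measure of robustness. No paired analysis was possible because each antibody had 1 library and no result came from a test. With a −log10 q of at least 5 or another overlap rule, TUBA1B was again the only member with H3.3 and no H2AZ CST in the gene and 5 kb around it. That count was 2 with 1 kb around the gene, 5 in the gene body, 5 with the 10000 strongest peaks of each list, and 0 with H2AZ from the Abcam list or from either list. At starts, members with H3.3 and neither H2AZ list went from 0 to 1 (TUBB) with a −log10 q of at least 5, an alternative chosen after seeing the data. In the gene body, H2AZ CST was at 5 members and at 1 general tubulin. With the 10000 strongest peaks, 5 members had H2AZ CST and 5 had H2AZ Abcam in the window, with 0 general tubulins in either list, and 6 had H4K16ac. At starts these became 4, 4 and 3 members. In that setting 2 neuronal tubulins had H4K16ac and 2 had H3K79me2 in the window. The counts with the 10000 strongest peaks and with 1 kb around the gene have no share over all protein-coding genes beside them. The same holds for H2AZ CST presence in the gene body, so all of these counts are descriptions only. Median coverage of the members became 17.9% in H3.3 and 0% in H4K16ac, H2AZ Abcam and H2AZ CST, and that of H4K16ac was 9.77% with a −log10 q of at least 5. Over genes of at most 10 kb, the background in windows was 47.2% in H3K79me2, 61.7% in H3.3, 59.7% in H4K16ac, 63.3% in H2AZ Abcam and 63.6% in H2AZ CST, and at starts 40.9%, 54.1%, 48.8%, 53.7% and 53.6%. By at least 1 bp, 34.9% of the members' H3.3 peaks overlapped H2AZ CST, 41.3% either H2AZ list and 47.6% H4K16ac. Over all H3.3 peaks these shares were 38.6%, 43.9% and 60.6%, so the H2AZ shares of the members were near the background. With 50% of the H3.3 peak covered, the members had 22.2%, 25.4% and 23.8% in the same order. Over all H3.3 peaks the shares by the 50% rule were 32.9%, 38.9% and 51.2%. With read depth unknown, a missing peak is a signal under the caller's threshold in 1 library.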

Other observations

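Tubulin and actin genes have many pseudogenes, copies of the genes or of their transcripts elsewhere in the genome. Of 69 annotated pseudogenes with symbols derived from ACTB, ACTG1 or tubulins, 4 (5.8%) overlapped an H2AZ CST peak, 2 (2.9%) H2AZ Abcam, 2 (2.9%) H3.3, 5 (7.25%) H4K16ac and 2 (2.9%) H3K79me2. Over all 16664 annotated pseudogenes the shares were 3.72%, 4.09%, 3.31%, 3.77% and 3.53%. TUBBP5 overlapped peaks of all 5 lists, with 36.5 for H2AZ CST, 164 for H2AZ Abcam and 27.2 for H3K79me2, and ACTG1P25 overlapped H2AZ CST of 77.3, H2AZ Abcam of 308 and H3.3 of 24.9. ACTG1P20 overlapped an H3K79me2 peak of 249 and no other list. These names were chosen after their values were seen.

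The starts differed in where peaks lay around them. In the 2 kb on either side of the start, H2AZ Abcam covered 1456 bp upstream and 0 bp downstream at ACTG1, 383 and 0 bp at TUBB4B, and 9 and 1179 bp at TUBA1A. H3.3 covered 30 bp upstream and 1088 bp downstream at TUBA1B, against 1858 and 574 bp at TUBB2B.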
